A study of Danio rerio with 6 samples.

Results

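The genes described here are 9 genes of the AP-1 family and the immediate early response, chosen by name: fosab, fosl1a, jun, junba, junbb, atf3, egr1, ier2 and btg2. Of these, 7 were found under exactly these symbols among the 29361 gene symbols of the count tables. The other two were found under other spellings: fosab is listed as fos, which RefSeq gives as its synonym, and ier2 as IER2. The row IER2 cannot be assigned to the zebrafish copy ier2a or ier2b from the symbol, although RefSeq lists ier2 as a synonym of ier2a. All 9 rows passed the low-count filter and were among the 19381 genes tested.

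RNA was sequenced from sorted cells of zebrafish embryos at 48 hours after fertilisation, in 3 libraries from fish with the uq4bh mutation of mafba and 3 from wild-type fish. All fish carried a transgene in which kdrl drives eGFP, a reporter of endothelial cells, and the samples are named as purified endothelial cells. The protocol text also names brains as the dissociated tissue and an EGFP reporter of pdgfr beta, so the tissue and the gate are not settled by the labels. Cells were released with Liberase, a blend of tissue-digesting enzymes, and sorted into Trizol LS, and the RNA was amplified. The labels do not say whether the mutant fish were homozygous or how many embryos were pooled in a library. The comparison asks whether these genes differ in fish with the mutation of mafba, which encodes a large Maf transcription factor.

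AP-1 is a family of dimeric transcription factors whose basic leucine zipper subunits include those of the Fos, Jun and Atf groups. Jun proteins can pair with each other or with Fos proteins, whereas Fos proteins need a partner. Immediate early genes are transcribed within minutes of a stimulus such as a growth factor, without new protein synthesis, through pre-formed factors such as Srf, its Elk partners and Creb, which lie downstream of MAP kinases. In endothelial cells growth factors of the Vegf family are among such stimuli. Transcripts of immediate early genes are also known to increase during enzymatic dissociation of tissue. The libraries of both genotypes went through such dissociation, and no undissociated sample was analysed here.

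The libraries held 44888870 to 52923490 reads on genes in the mutant and 43859736 to 49145191 in the wild-type group. Wild-type 1 stood apart in its reads that aligned to more than 1 place, which were 20.3% of its entries against 13.6% to 15.0% in the other libraries. Endothelial genes were detected, with kdrl at 44.4, 39.4 and 34.3 CPM in mutant 1, 2 and 3 and at 54.8, 35.2 and 36.8 CPM in wild-type 1, 2 and 3. CPM here means reads per 1000000, on library sizes scaled by TMM factors. Genes of other cell types also took reads: the neutrophil gene lyz stood at 4490 to 10489 CPM in mutant and 4076 to 6215 CPM in wild-type libraries, and the epidermal keratin gene krt4 at 3110 to 4524 and 2510 to 3751 CPM. In bulk samples fewer cells of a type and less RNA per cell cannot be told apart.

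None of the 9 genes differed between the genotypes beyond the spread between libraries. The edgeR quasi-likelihood test called 0 of the 9 rows (adjusted p = 1.00 for each), and 0 had an unadjusted p under 0.05, the lowest being 0.292. DESeq2 and limma-voom also called 0 of the 9 rows, with 0 at an unadjusted p under 0.05. Over all tested genes the edgeR test called 0%, that is 0 of 19381, and 1.57% had an unadjusted p under 0.05. On TMM-scaled library sizes the mutant and wild-type libraries overlapped in all 9 rows, where 6.74% of all tested genes did not overlap. On plain library totals only btg2 did not overlap, being higher in the mutant libraries. The share of all tested genes without overlap on plain totals was not computed. Fitted values were higher in the mutant libraries for 6 rows and lower for 3, with a median log2 difference of 0.05, against 49.3% higher and a median of 0.00 over all tested genes. The split depended on single libraries: 3 were higher and 6 lower without mutant 1, mutant 2 or wild-type 3, and 8 higher and 1 lower without mutant 3 or wild-type 2.

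The 95% intervals limit how large a difference could have gone unseen, given the variation among these libraries. That variation may be technical, since the labels do not state separate pools of fish. The intervals may then not bound a difference between fish. Across the 9 rows the intervals ran from 0.723 times the wild-type level, for fosl1a, up to 1.501 times, for egr1. In 8 of the 9 rows both bounds lay within 1.5-fold of the wild-type level. The median half-width was 1.29-fold, close to the 1.31-fold of the 4185 tested genes whose log2 CPM averaged 5 or more.

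**Figure D1:**
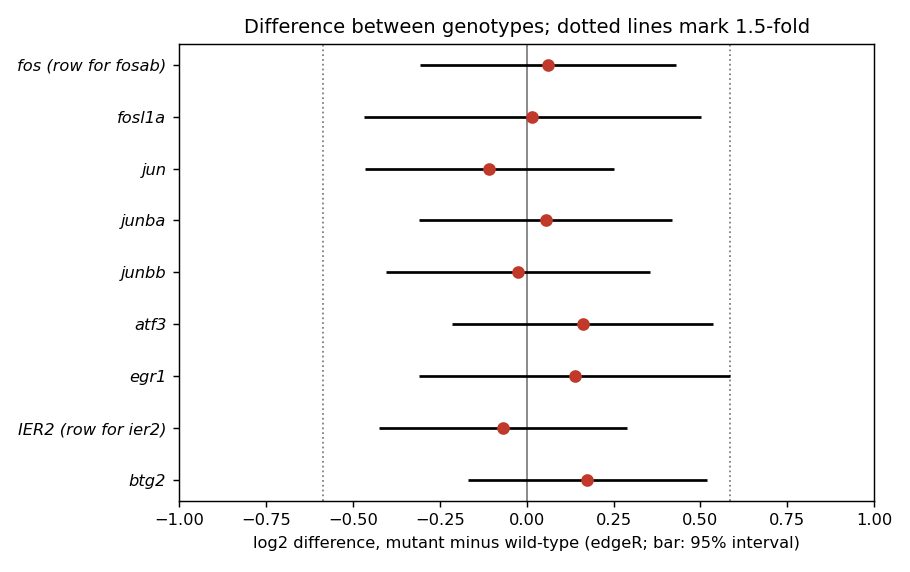
Log2 difference, mutant minus wild-type, of each of the 9 rows in the edgeR fit (points) with its 95% interval (bars); dotted lines mark 1.5-fold. Every interval includes 0, and only that of egr1 reaches the upper dotted line, at 1.501-fold.

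Of the Fos group, fosab encodes a zebrafish c-Fos, and its row fos stood at 1673, 1823 and 1334 CPM in mutant 1, 2 and 3 and at 1552, 1726 and 1350 CPM in wild-type 1, 2 and 3. In both genotypes the second library was highest and the third lowest, and the groups overlapped throughout. The means were 1610 ± 250.2 CPM in mutant and 1543 ± 188 CPM in wild-type libraries (SD, n = 3 each), a log2 difference of 0.06 ± 0.17 (SE). It was -0.04 without mutant 2 and -0.03 without wild-type 3.

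The gene fosl1a encodes a Fos-related protein known as Fra1 in mammals. It had 1010, 638 and 625 CPM in the mutant libraries, against 647, 967 and 632 CPM in the wild-type libraries. Thus 1 library of each genotype, mutant 1 and wild-type 2, stood well above the other four, which lay within a narrow band. The log2 difference was 0.02 ± 0.22 (SE), between means of 758 ± 219 and 749 ± 189 CPM in mutant and wild-type libraries (SD, n = 3). It was -0.25 without mutant 1, -0.08 without wild-type 1 and -0.09 without wild-type 3, and 0.24 without wild-type 2.

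Further Fos-group rows were looked up after these values were seen. The paralogue fosb stood at 1066, 846 and 773 CPM in mutant and 938, 1182 and 851 CPM in wild-type libraries, and fosl2 at 605, 505 and 475 CPM and 466, 578 and 452 CPM. Both had mutant 1 and wild-type 2 as their highest libraries, as fosl1a did. That pair was highest in 3 of the 11 other AP-1 subunits tested, where it was for 6.74% of all tested genes. Another paralogue, fosl1b, had 0 reads in every library. A pair of rows is named as further copies of FOS, without a zebrafish symbol. One, FOS_(2_of_3), had 1480, 915 and 1357 reads in mutant and 610, 1135 and 1099 in wild-type libraries, and FOS_(3_of_3) had at most 113 reads. Reads that fit more than 1 copy are not in these counts, so values of paralogues carry that uncertainty.

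The Jun group supplies the partners of Fos proteins. For jun, the zebrafish c-Jun, the levels were 1812, 1725 and 1433 CPM in mutant libraries, against 1768, 2033 and 1553 CPM in wild-type libraries. Wild-type 2 was highest, and the third library was the lowest of its genotype in both. The log2 difference of jun was -0.11 ± 0.16 (SE), with means of 1656 ± 198 and 1785 ± 241 CPM in mutant and wild-type libraries (SD, n = 3). It kept its sign under every alternative, although it came to -0.003229 without wild-type 2.

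The 2 zebrafish copies of JunB, a subunit that in mammals can weaken activation by c-Jun, were both detected. Mutant libraries held junba at 1309, 1353 and 975 CPM and wild-type libraries at 1193, 1254 and 1056 CPM. The lowest of all was mutant 3, and mutant 1 and 2 were above every wild-type library. The log2 difference of junba was 0.05 ± 0.17 (SE). It was -0.003690 without mutant 1, -0.03 without mutant 2 and -0.01 without wild-type 3.

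For junbb the values were 2688, 2359 and 2010 CPM in mutant and 2459, 2727 and 1995 CPM in wild-type libraries. The third libraries of both genotypes were lowest and nearly level, while mutant 1 and wild-type 2 were highest. The log2 difference of junbb was -0.03 ± 0.17 (SE), and it was 0.08 without mutant 3 or without wild-type 2. Means were 2352 ± 339 CPM in mutant and 2394 ± 371 CPM in wild-type libraries (SD, n = 3).

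The stress-responsive gene atf3 encodes a zipper protein that pairs with Jun proteins and as a homodimer represses transcription. It was at 1429, 1068 and 980 CPM in the mutant libraries, against 1031, 1128 and 950 CPM in the wild-type libraries. Mutant 1 lay above the other five, which spread over a narrower range. The log2 difference of atf3 was 0.16 ± 0.17 (SE), with means of 1159 ± 238 CPM in mutant and 1037 ± 89.2 CPM in wild-type libraries (SD, n = 3). Without mutant 1 it was -0.02.

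The zinc finger factor gene egr1, a target of Srf and Elk factors, had 318, 466 and 310 CPM in mutant libraries and 283, 425 and 286 CPM in wild-type libraries. The second library was the highest in both genotypes, and the other four lay together below it. In egr1 the highest library stood 1.65 times above the lowest, the widest range of the 9 rows, whereas the genotype means were 365 ± 87.9 and 331 ± 81.0 CPM in mutant and wild-type libraries (SD, n = 3). The log2 difference was 0.14 ± 0.21 (SE), and it was -0.08 without mutant 2 and 0.36 without wild-type 2.

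The row IER2, for a short-lived nuclear protein of the immediate early response, stood at 327, 357 and 262 CPM in mutant and 294, 379 and 319 CPM in wild-type libraries. Again the second library was highest in each genotype, and mutant 3 was lowest of all. The log2 difference of IER2 was -0.07 ± 0.16 (SE), and it was 0.05 without mutant 3 and 0.04 without wild-type 2.

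The last of the 9, btg2, encodes an antiproliferative protein that promotes removal of mRNA poly(A) tails. Its levels were 1222, 1173 and 909 CPM in mutant libraries, against 1018, 982 and 928 CPM in wild-type libraries. On these TMM-scaled values mutant 1 and 2 lay above all wild-type libraries and mutant 3 below them all. On plain library totals mutant 3 had 53467 btg2 reads among 52923490 reads on genes, a higher share than in any wild-type library. The genotypes then did not overlap, and the log2 difference was 0.16 (unadjusted p = 0.215, edgeR quasi-likelihood). The log2 difference of btg2 was 0.17 ± 0.16 (SE; unadjusted p = 0.292, edgeR quasi-likelihood), the largest of the 9, and it remained positive in each alternative. Without mutant 3 it was 0.29, with an unadjusted p of 0.0406 and no call after adjustment over all genes (adjusted p = 1.00, edgeR).

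**Figure D2:**
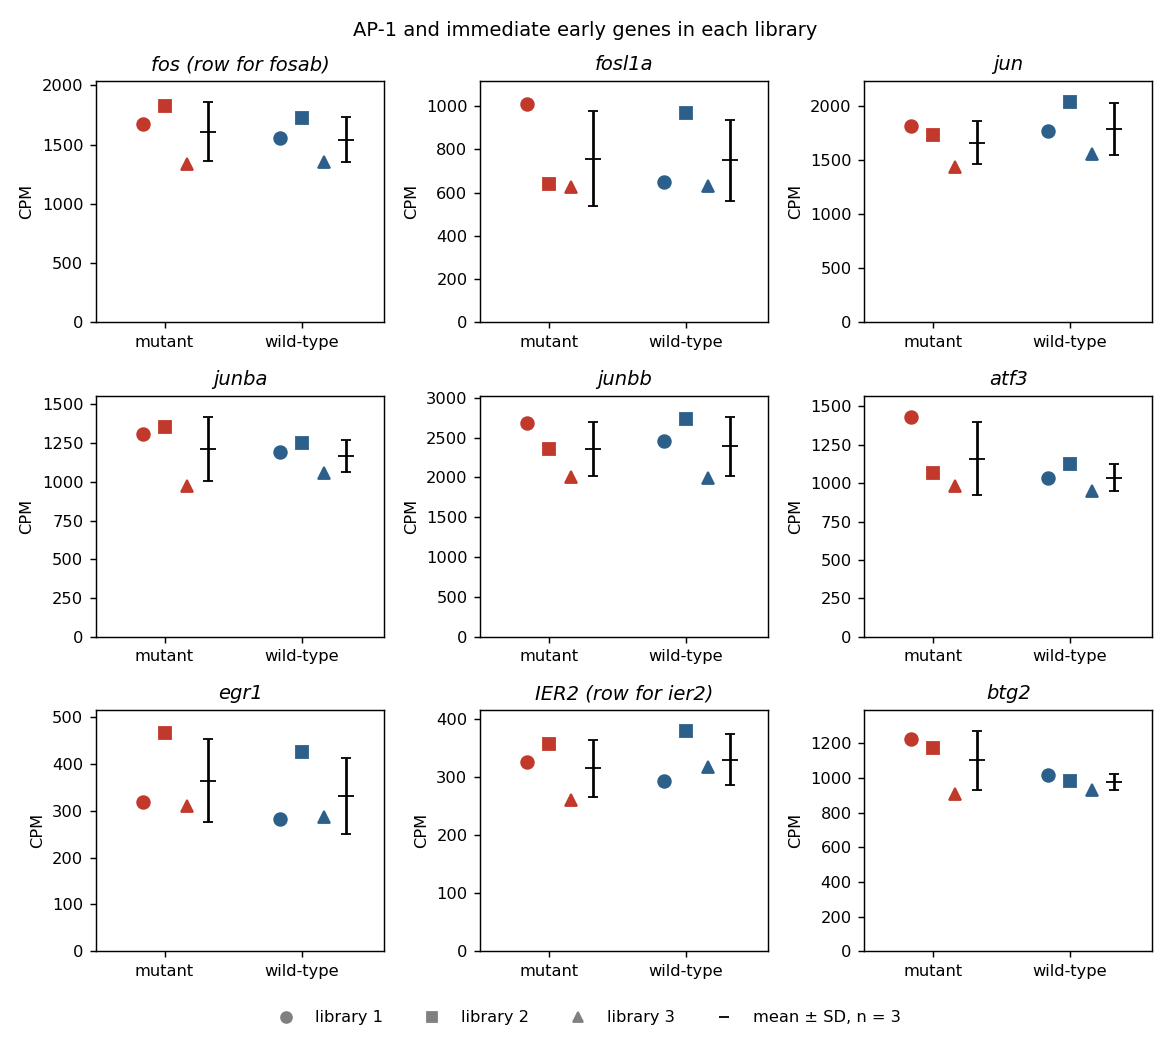
CPM of each of the 9 rows in the 3 mutant (red) and 3 wild-type (blue) libraries, with symbols for the library number and the mean ± SD (n = 3) in black. On these TMM-scaled values the genotypes overlap in every panel. The row fosl1a is high in mutant 1 and wild-type 2, and egr1 in mutant 2 and wild-type 2.

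The libraries differed from one another in a way that cut across genotype. In 7 of the 9 rows mutant 3 and wild-type 3 were the 2 lowest libraries, which was so for 9.72% of all tested genes and 18.3% of these 4185 well-expressed genes. Among the 7 rows with the exact symbols it was 6. The exceptions were egr1 and IER2, in both of which wild-type 1 was among the 2 lowest. This order depended on the scaling: on plain library totals the same pair was lowest in 2 of the 9 rows. The TMM factors were 1.11 for mutant 3 and 1.06 for wild-type 3, against 0.939 to 0.979 for the other four libraries. These libraries also had the most genes with reads, 21098 and 20305, against 19230 to 19490 in the others. The part of scaling and of detected genes in the order was not tested further.

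At the upper end the 9 rows fell into 3 patterns. In fosl1a, jun, junbb and atf3 the 2 highest libraries were mutant 1 and wild-type 2, a pair that was highest for 6.74% of all tested genes and 8.63% of the well-expressed ones. In fos, egr1 and IER2 they were mutant 2 and wild-type 2, as for 7.95% of all tested genes and 7.93% of the well-expressed ones. In junba and btg2 they were mutant 1 and mutant 2, as for 9.15% of all tested genes and 14.3% of the well-expressed ones. On library totals the 2 highest libraries were the same in 8 rows, and in IER2 they became wild-type 2 and wild-type 3. These patterns were noticed in the data and are given as a description.

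**Figure D3:**
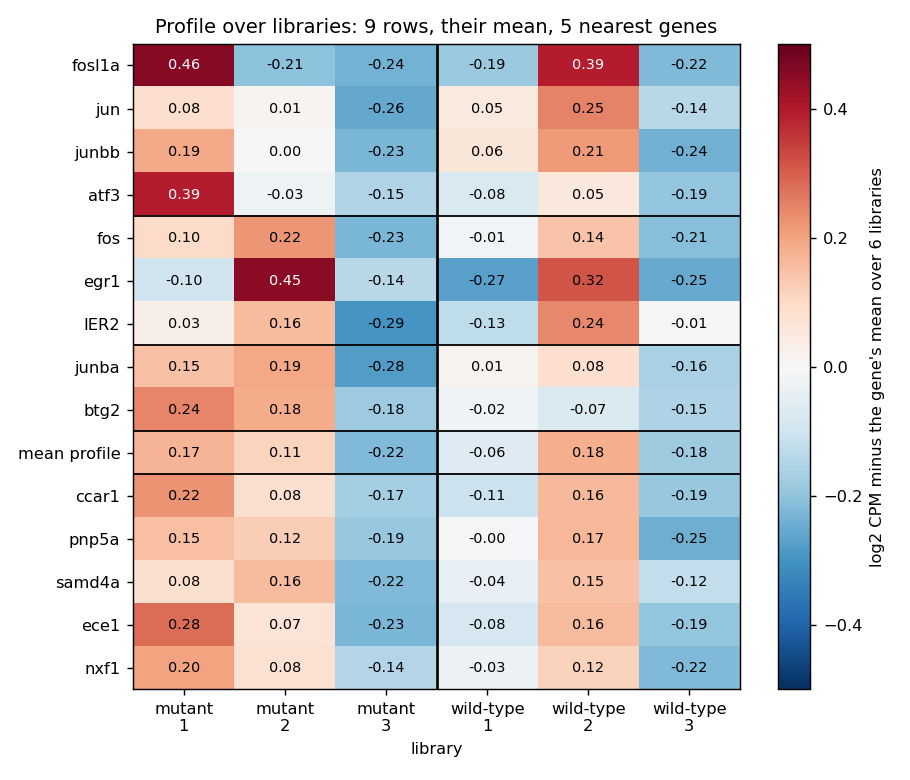
Log2 CPM minus the gene's own mean over the 6 libraries, for the 9 rows grouped by their 2 highest libraries, for their mean and for the 5 tested genes nearest to that mean. Columns are libraries, mutant left of the line; mutant 3 and wild-type 3 are lowest in the mean profile, at -0.22 and -0.18.

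The spread of these genes between libraries was close to that of other well-expressed genes. The highest library stood 1.34 to 1.65 times above the lowest in the 9 rows, with a median of 1.42. Over the 4185 well-expressed genes the median was 1.46, with quartiles of 1.31 and 1.68. Together the 9 rows took 1.13%, 1.03% and 0.982% of the reads on genes in mutant 1, 2 and 3 and 0.991%, 1.14% and 0.958% in wild-type 1, 2 and 3. As summed CPM this was 11788, 10962 and 8837 in mutant and 10244, 11622 and 9069 in wild-type libraries, so the genotypes overlapped in the sum as well.

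The mean of the 9 profiles, in log2 CPM centred on each gene's mean, was 0.17, 0.11 and -0.22 in mutant 1, 2 and 3 and -0.06, 0.18 and -0.18 in wild-type 1, 2 and 3. The row closest to this mean was fos, at a root-mean-square distance of 0.06 log2 units over the 6 libraries, followed by junba and junbb at 0.07. Farthest were egr1 at 0.21 and fosl1a at 0.20. Among 9331 other tested genes whose log2 CPM averaged 3 or more, the 5 nearest to the mean profile were ccar1 (0.04), pnp5a (0.04), samd4a (0.05), ece1 (0.05) and nxf1 (0.05), where the median distance was 0.28. The nearest, ccar1, stood at 55.3, 50.0 and 42.0 CPM in mutant and 44.0, 52.9 and 41.5 CPM in wild-type libraries. The distances rest on 6 libraries that share the same scaling and are given with no test.

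Some markers of other cell types moved with parts of this order and others did not. The 19 skeletal muscle markers summed to 4007, 5652 and 2583 CPM in mutant and 5250, 8199 and 2759 CPM in wild-type libraries, and mutant 3 and wild-type 3 were the 2 lowest libraries for 17 of these 19 genes. The 13 epidermis markers summed to 13940, 11000 and 9482 CPM in mutant and 11668, 11589 and 8606 CPM in wild-type libraries, lowest in the same pair. Among single epidermis genes that pair was lowest for 8 of 13. The 9 neutrophil markers summed to 7307, 17648 and 9190 CPM in mutant and 8707, 11819 and 7564 CPM in wild-type libraries. Their 2 highest libraries were mutant 2 and wild-type 2, as in fos, egr1 and IER2. The same libraries were highest in the skeletal muscle and erythroid sums. This was so for 6 of 9 neutrophil, 14 of 19 muscle and 5 of 12 erythroid genes, where 7.95% of all tested genes did the same. The 13 endothelial markers summed to 590, 577 and 428 CPM in mutant and 666, 434 and 469.8 CPM in wild-type libraries and were highest in wild-type 1. Mutant 3 and wild-type 3 were the 2 lowest libraries for 4 of these 13 genes, as for 9.72% of all tested genes. The neural markers ran differently, at 463, 529 and 635 CPM in mutant and 547, 747 and 623 CPM in wild-type libraries, with mutant 3 and wild-type 3 next after wild-type 2. That pair was lowest for 1 of the 13 neural genes tested. Macrophage markers summed to 327, 289 and 267 CPM in mutant and 238, 428 and 273 CPM in wild-type libraries, and erythroid markers to 1562, 4135 and 2588 CPM and 2366, 3246 and 3179 CPM. Neither had its lowest libraries in the third pair. The macrophage sum was highest in wild-type 2 and mutant 1, the pair that was highest in fosl1a, jun, junbb and atf3. Most of that sum came from the gene apoeb, at 318 CPM in mutant 1 and 417 CPM in wild-type 2. The pair was highest for 1 of the 8 macrophage genes tested, where it was for 6.74% of all tested genes. Mural markers were low. Their sum was lower in each mutant library, at 118, 114 and 114 CPM, against 123.5, 132 and 124 CPM in wild-type libraries. The mural gene with the highest level, rgs5b, had 44.2, 44.3 and 42.2 CPM in mutant and 52.2, 57.8 and 47.3 CPM in wild-type libraries. Of the 11 mural genes tested, 4 were fitted higher and 7 lower in mutant libraries. In 3 of them every mutant library lay below every wild-type library, where 3.36% of all tested genes did. The mural median log2 difference was -0.28, and -0.06 without mutant 1. Fitted lower in mutant libraries were also 18 of 19 muscle, 11 of 13 neural, 8 of 12 erythroid and 5 of 8 macrophage genes. Fitted higher were 7 of 9 neutrophil, 7 of 13 endothelial and 6 of 13 epidermis genes. Without wild-type 2, 12 of the 19 muscle genes were higher, and without mutant 2, 8 of the 9 neutrophil genes were lower. All these sums are on TMM-scaled library sizes, and the order of the marker sums on plain library totals was not examined. The part of these cell types in the order of the 9 genes was not tested.

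**Figure D4:**
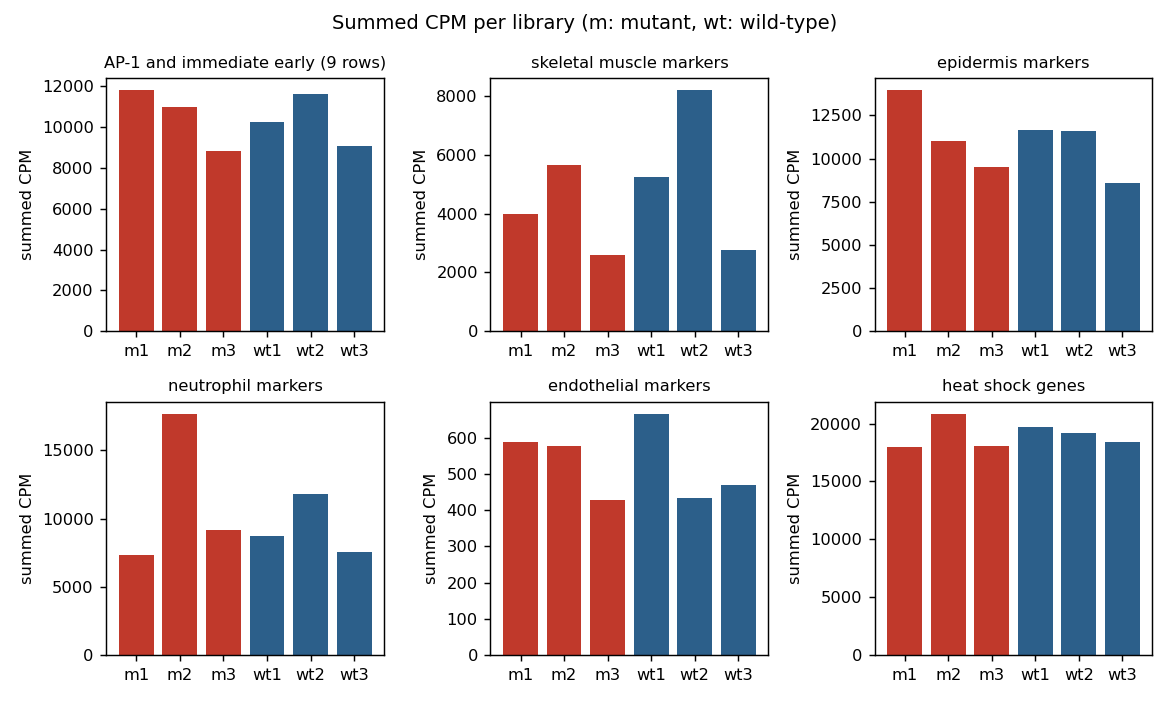
Summed CPM per library of the 9 rows, of 4 marker lists and of heat shock genes, mutant libraries in red and wild-type libraries in blue. On TMM-scaled library sizes, muscle and epidermis markers are lowest in mutant 3 and wild-type 3, as the sum of the 9 rows is. Neutrophil markers are highest in mutant 2, at 17648 CPM.

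The other genes of the pathway were taken from lists and gave 0 calls in each (edgeR quasi-likelihood, adjusted p = 1.00 for each gene named here). Of 11 other AP-1 subunits tested, 5 were fitted higher and 6 lower in mutant libraries, with a median log2 difference of -0.05. The median was 0.12 without mutant 3, with 6 higher and 5 lower, -0.10 without mutant 2, with 4 higher and 7 lower, 0.03 under a stricter low-count filter that kept 8 of these genes and 0.05 in limma-voom. The member with the smallest p was atf7a, for a Jun partner of the Atf group, at 14.35, 12.01 and 11.52 CPM in mutant and 4.030, 10.05 and 9.996 CPM in wild-type libraries, a log2 difference of 0.65 ± 0.36 (SE). Every mutant library lay above every wild-type library, which held for 3.38% of all tested genes. The next, batf, was near the limit of detection with 0, 0 and 14 reads in mutant and 0, 29 and 34 reads in wild-type libraries.

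Upstream of the immediate early genes, 18 of 28 genes for Srf, Elk, Creb and MAP kinase proteins were fitted higher and 10 lower (median 0.04). One had an unadjusted p under 0.05, rps6ka3a, which encodes a kinase activated by Erk and stood at 133, 111 and 102 CPM in mutant and 89.7, 90.6 and 95.4 CPM in wild-type libraries. For rps6ka3a the log2 difference was 0.33 ± 0.15 (SE; unadjusted p = 0.0491, adjusted p = 1.00, edgeR). It was the 1 gene of this list in which every mutant library lay above every wild-type library, where 3.38% of all tested genes did. In 2 genes every mutant library lay below, where 3.36% of all tested genes did. One was the paralogue rps6ka3b, at 12.2, 12.3 and 12.8 CPM in mutant and 15.3, 17.4 and 14.7 CPM in wild-type libraries (log2 difference -0.35 ± 0.23), and the other mapk9, for a Jnk kinase, at -0.59 ± 0.41 (SE). For mapk9 there were 193, 94 and 290 reads in mutant and 229, 262 and 289 in wild-type libraries. On plain library totals mutant 3 lay above wild-type 1 in mapk9. The Erk kinase gene map2k1 differed by 0.44 ± 0.27. The list had 12 higher and 16 lower without mutant 3, and 20 higher and 8 lower without mutant 2 or wild-type 3.

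Among 45 other immediate early genes, 12 were fitted higher and 33 lower (median -0.08). Without wild-type 2 the list had 24 higher and 21 lower and a median of 0.04, and limma-voom gave 18 higher and 27 lower. Wild-type 2 was the highest library in the summed CPM of this list, which was 11332, 11094 and 10652 in mutant and 10640, 12831 and 10397 in wild-type libraries. The smallest p belonged to klf2b and klf2a, genes for flow-responsive factors, at log2 differences of -0.38 ± 0.19 and -0.44 ± 0.24 (SE). In 1 of these 45 genes, csrnp1a, every mutant library lay below every wild-type library, where 3.36% of all tested genes did. On plain library totals mutant 3 lay above the wild-type libraries in csrnp1a.

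Feedback inhibitors, which dampen MAP kinase and cytokine signals, had 10 of 22 higher and 12 lower (median -0.01). The count was 3 higher and 19 lower without wild-type 1 and 15 higher and 7 lower without wild-type 2. The Sprouty gene spry2 stood at 23.2, 26.3 and 26.3 CPM in mutant and 31.5, 33.2 and 31.5 CPM in wild-type libraries, with no overlap, which was so in this direction for 3.36% of all tested genes. Its log2 difference was -0.34 ± 0.18 (SE), and that of socs3a, an inhibitor of Jak–Stat signalling, -0.29 ± 0.19. In the other direction spred1, for a Sprouty-related protein, did not overlap either, which was so for 3.38% of all tested genes. It stood at 20.5, 17.8 and 19.0 CPM in mutant and 17.2, 15.5 and 17.8 CPM in wild-type libraries. Mutant 2 and wild-type 3 were level to 3 digits in spred1. Its log2 difference was 0.19 ± 0.22 (SE).

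Heat shock genes are another group that responds to stress. Of 17, 3 were fitted higher and 14 lower, with a median log2 difference of -0.18. That median was -0.04 without mutant 1, with 5 higher and 12 lower, and -0.47 without mutant 2, with 1 higher and 16 lower. The smallest p belonged to hspb1 at -0.64 ± 0.34 and hsp90aa1.1 at -0.76 ± 0.47 (log2, SE). In 1 of these 17 genes, dnajb1a, every mutant library lay below every wild-type library, where 3.36% of all tested genes did. The inducible hsp70l, picked after its values were seen, had 170, 562 and 207 CPM in mutant and 222, 469 and 306 CPM in wild-type libraries. It was highest in mutant 2 and wild-type 2, the same pair as in egr1, fos and IER2, and low in mutant 1, where fosl1a and atf3 were highest. That pair was highest for 4 of the 17 heat shock genes, where it was for 7.95% of all tested genes. The sum of the heat shock genes was highest in mutant 2 and wild-type 1.

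**Figure D5:**
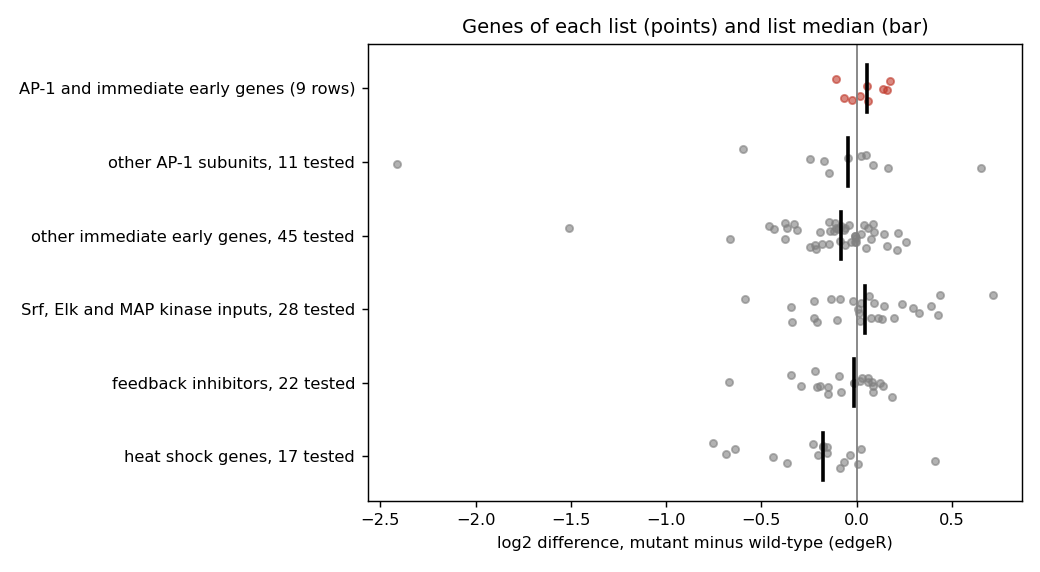
Log2 difference, mutant minus wild-type (edgeR), of each tested gene in the 9 rows and in 5 further lists (points), with the median of each list (bars). The medians lie between -0.18, for heat shock genes, and 0.05, for the 9 rows.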

How the data were processed

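RNA-seq libraries of 3 mutant and 3 wild-type samples were grouped by their titles. The values deposited by the authors are raw read counts for each gene symbol. The submitters' processing notes name bcl2fastq, STAR and HTSeq and the builds danRer7 and Zv9; the annotation, the strand setting and tool versions are not given there, so reads of genes that overlap on either strand cannot be told apart. The 5 summary rows of each file, 22.1% to 28.1% of its entries, were left out. The deposited series table was checked against the single files (0 entries differed). The analysis used R 4.3.3 and edgeR 4.0.16 (filterByExpr defaults, TMM factors, robust quasi-likelihood test, Benjamini-Hochberg adjustment over all tested genes, threshold 0.05), with limma 3.58.1 and DESeq2 1.42.0 as alternatives; plots used Python 3.11.15 and matplotlib 3.10.9. These tests were tested on simulated counts with known changes. Of changes of 2-fold, edgeR recovered 29.9%, limma-voom 29.9% and DESeq2 41.8%, and of changes of 4-fold 77.6%, 71.6% and 83.6%. False calls numbered 8 in edgeR, 6 in limma-voom and 48 in DESeq2. Many true changes of 2-fold would thus go uncalled. Log2 CPM used a prior count of 2.

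Replicates of a genotype differed beyond sampling noise (mean chi-square per gene 60.8 to 120). The labels do not state that they are separate pools of fish, and the p-values therefore reflect variation among these libraries, which may be technical. CPM was compared within genes only, since gene lengths were not used here. Of 252 list entries, 217 matched a symbol exactly, 16 through a synonym in RefSeq's gene table (GRCz12tu) and 3 in another case. No coordinates or sequences are given, since no sequence of the build of the counts was used here. In addition to the 9 genes, the text names the 2 genes of smallest p in each list, since no gene passed. It also names marker genes and the 5 genes nearest to the mean profile. The genes rps6ka3b, mapk9, csrnp1a, spred1 and dnajb1a were picked from their values. The reason was that their libraries did not overlap between genotypes on TMM-scaled library sizes. On plain library totals csrnp1a and mapk9 overlapped, and rps6ka3b, spred1 and dnajb1a were not examined. Further Fos-group rows and hsp70l were also picked after their values were seen. The members and lists were chosen with earlier results of these data known.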

Additional observations from a re-analysis of the deposited data

How the results depend on the processing

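Changed genes numbered 0 in edgeR with RLE or upper-quartile factors, library totals, no filter (23505 genes) or a strict filter (11382 genes). They also numbered 0 in edgeR without robust fitting, at a threshold of 0.1 and without each library in turn. DESeq2 and limma-voom called 0 genes at 0.05, and the lowest adjusted p in DESeq2 was 0.0829. An unadjusted p under 0.05 was reached by 305 genes in the main edgeR test, 358 in DESeq2 and 461 in limma-voom. In edgeR without mutant 3 it was reached by 929 genes, with a lowest adjusted p of 0.168, and without any other library by 232 to 483. Of 135 alternative log2 differences of the 9 rows, 120 had the sign of the main value, 15 the other, and 0 passed the threshold. Those that turned came from leaving out a library, except that of junbb in limma-voom (0.0484), and the cause was not tested. With each library left out in turn, the log2 difference ranged from -0.0363 to 0.18 for fos, from -0.25 to 0.24 for fosl1a, from -0.20 to -0.003229 for jun, from -0.0308 to 0.19 for junba, from -0.14 to 0.0794 for junbb, from -0.0165 to 0.27 for atf3, from -0.0766 to 0.36 for egr1, from -0.17 to 0.04998 for IER2 and from 0.09 to 0.29 for btg2. When the number was fitted as a replicate block, edgeR called 0 genes (lowest adjusted p = 0.0535), 523 had an unadjusted p under 0.05, and none of the 9 differences changed sign; same-numbered libraries deviated together at correlations of 0.0598, 0.0211 and 0.140 across genes, and nothing in the labels links libraries of one number. The 18 mean CPM values moved by less than 1 SD on library totals. The list counts per left-out library and the library orders on library totals were added after the results were seen. The 9 rows held at least 12004 reads in each library, so counting error was small beside the spread between libraries.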
